A study of Arvicanthis niloticus with 5 samples.

Results

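Creatine kinases and the enzymes that make creatine were examined in the RNA of the Nile rat eye. The members were the genes carrying 1 of 6 symbols in a mouse, rat or human name column of the deposited ortholog table. They were the kinases Ckb, Ckm, Ckmt1 and Ckmt2 and the synthesis enzymes Gatm and Gamt. The 6 symbols were found on 5 transcripts, because Ckmt1 and Ckmt2 shared a transcript. The whole table held 13982 named genes on 15454 transcripts, among 124439 transcripts in all. The 5 samples, numbered 1, 3, 5, 7 and 9, were whole eye tissue of wild type Nile rats (Arvicanthis niloticus), a day-active African rodent. No treatment was labelled, and no control or second group was present. The labels describe a library pooled from the RNA of 5 rats, and the expression table holds a single value per transcript. It was treated as 1 pool, so no spread between animals could be given and no test was run. Levels are in FPKM, that is, the fragments on a transcript for each 1000 nt of its length and each 1000000 fragments mapped. Brackets give 95% intervals that cover the counting of fragments only.

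Creatine kinase moves a phosphate group between ATP and creatine, so that phosphocreatine holds and carries energy near the sites that use ATP. Ckb is the brain-type cytosolic form, found in brain, retina and many other tissues, and Ckm is the cytosolic form of skeletal and heart muscle. Both mitochondrial forms sit between the mitochondrial membranes, Ckmt1 widely and Ckmt2 in striated muscle. Creatine is built in successive steps: Gatm joins arginine and glycine to guanidinoacetate, and Gamt adds a methyl group. Cells that do not make creatine take it up, chiefly through the transporter Slc6a8. In the retina, photoreceptors are heavy users of ATP, and mitochondrial creatine kinase has been described in their inner segments in chicken.

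The pool rested on 64967222 mapped fragments. Of the estimated fragments, 47.2% lay on named transcripts, so ranks and shares among named genes leave out the rest. Any piece of a gene on a transcript without its symbol is missing from its level. The eye origin of the RNA was visible in its markers. All 12 photoreceptor markers and all 8 measured lens markers reached 10 FPKM, against 34.0% of all named genes. The medians of these lists were 317 and 960 FPKM. The median over all named genes was 6.50 FPKM. In whole-eye RNA, fewer cells of a type and less RNA per cell cannot be told apart.

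Ckb was the most abundant member. It stood at 178 FPKM [175 to 181], from 13943 fragments on 1 transcript of 1207 nt. This level was 27.3-fold above the median named gene, and 99.0% of named genes lay below it. Ckb ranked 142nd of the 13982 named genes. It carried the name Ckb in mouse and rat, and the human column was empty.

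The mitochondrial kinase transcript was the next most abundant member, at 53.5 FPKM [52.1 to 55.0], from 5328.5 fragments on 1532 nt. It ranked 759th, above 94.6% of named genes. Its identity was uncertain: the mouse and human columns named it Ckmt2, the sarcomeric form, whereas the rat column named it Ckmt1, the widespread form. No other transcript carried either symbol, so the match gave 1 value for both forms and no ratio between them. Symbols were matched exactly apart from case, so a transcript listed under another name of either form would be missed. Conflicts between species names were common: 27.3% of the 9460 named transcripts with symbols from at least 2 species had symbols that differed. Some of these are synonyms for 1 gene.

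Ckm, the muscle form, stood at 28.6 FPKM [27.5 to 29.7], from 2755 fragments on 1 transcript of 1484 nt. All 3 species columns named it Ckm. It was 4.39-fold above the median named gene and ranked 1669th.

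The enzymes of synthesis were the lowest members. Gamt, the methyltransferase of the second step, stood at 13.8 FPKM [13.1 to 14.7], from 1176 fragments on 1307 nt, and 75.3% of named genes lay below it. Gatm, the mitochondrial amidinotransferase of the first step, stood at 7.06 FPKM [6.60 to 7.55], from 864 fragments on 1883 nt. Gatm was therefore 1.09-fold above the median named gene, with 53.1% of named genes below it. The order of the members was Ckb, the mitochondrial kinase transcript, Ckm, Gamt and Gatm, and no intervals of neighbours in this order overlapped. These intervals hold no variation between animals, so the order describes this pool.

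**Figure D1:**
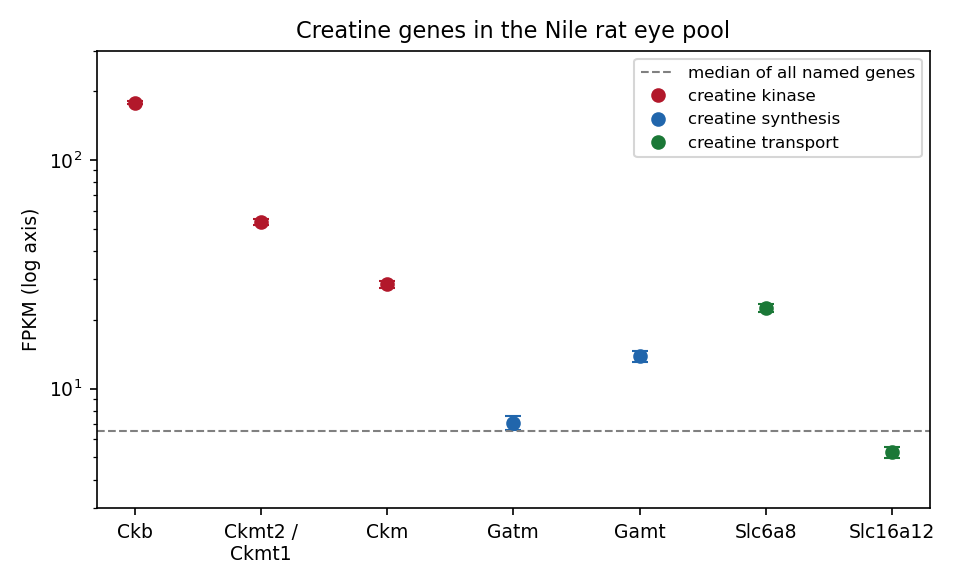
Level of each creatine gene in FPKM on a log axis, with 95% counting intervals and the median of all named genes as a dashed line. Ckb at 178 FPKM stands highest, the synthesis enzymes Gatm and Gamt lie at 7.06 and 13.8 FPKM, and the transporter Slc6a8 at 22.5 FPKM lies above both. The second point is the transcript named Ckmt2 in mouse and human and Ckmt1 in rat.

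All 5 member transcripts reached 1 FPKM, as did 93.2% of all named genes, so detection alone sets the members apart from few genes. All 5 also reached 5 FPKM, against 59.8% of named genes. Of the 5, 4 reached 10 FPKM, against 34.0% of all named genes. At 50 FPKM 2 remained, Ckb and the mitochondrial kinase transcript, against 6.06% of named genes. At 100 FPKM Ckb remained, against 2.21%. The median of the 5 transcripts was 28.6 FPKM, beside 6.50 FPKM over all named genes.

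Among the kinases, Ckb held most of the RNA per length. The 3 kinase transcripts summed to 259.9 FPKM [256 to 263] and took 0.0339% of the mapped fragments. Ckb made up 68.4% of the kinase FPKM, the mitochondrial transcript 20.6% [20.1 to 21.1] and Ckm 11.0%. Ckb was 6.22-fold [5.97 to 6.48] above Ckm, a log2 ratio of 2.64 [2.58 to 2.70]. Against the mitochondrial transcript, Ckb was 3.32-fold higher [3.22 to 3.43], a log2 ratio of 1.73. Ckm lay below the mitochondrial transcript, with a log2 ratio of -0.91 [-0.97 to -0.84]. If that transcript is Ckmt2, the muscle forms together held 31.6% [31.0 to 32.2] of the kinase FPKM. If it is Ckmt1, the muscle share was that of Ckm alone, 11.0%. These shares cover only the 3 kinase transcripts found by exact symbol.

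The 3 kinase transcripts had fractional estimated counts, and the transcripts of Gatm and Gamt had whole counts. A fractional count means that fragments were divided between transcripts, which held for 44.0% of named transcripts. The kinases are related in sequence. Whether fragments were divided between kinases or with other transcripts was not tested, and the counting intervals do not hold this error.

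Within creatine synthesis, Gatm was lower than Gamt, with a log2 ratio of -0.97 [-1.10 to -0.84]. The transporter Slc6a8, which carries creatine into cells with sodium and chloride, stood at 22.5 FPKM [21.7 to 23.4]. It was 3.19-fold [2.95 to 3.45] above Gatm and 1.63-fold [1.52 to 1.74] above Gamt. Slc16a12, a creatine transporter of the monocarboxylate family whose mutation is linked to cataract in humans, stood at 5.26 FPKM [4.98 to 5.55]. Slc6a8 was 4.28-fold [4.01 to 4.58] above it. Of the genes of creatine entry and synthesis, Slc6a8 was therefore the highest, and Ckb was 7.89-fold [7.56 to 8.23] above Slc6a8. Ratios that involve a transporter were chosen after the values were seen.

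Arginine and glycine are the substrates of Gatm. Of 14 genes that make, carry or use them, or that use ornithine, 12 were named on a transcript. All 12 reached 1 FPKM, against 93.2% of all named genes, and 6 reached 10 FPKM, against 34.0%. The median of the 12 was 11.7 FPKM. Oat, ornithine aminotransferase, was highest at 98.6 FPKM [97.0 to 100.2]. Ornithine is the second product of Gatm and inhibits it, and loss of human OAT causes gyrate atrophy of the retina and choroid. Oat stood 13.96-fold [13.0 to 14.9] above Gatm, a ratio chosen after the values were seen. Odc1, which turns ornithine into putrescine, was at 55.9 FPKM, and the glycine transporter Slc6a9 at 32.7 FPKM. The lowest was Arg1, the arginase of liver, at 1.71 FPKM. No transcript carried the symbols of the arginine carriers Slc7a1 and Slc7a7, which were not analysed here.

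Gamt uses S-adenosylmethionine as its methyl donor. Of 13 genes of the methyl donor cycle or related to its enzymes, 12 were measured. Of the 12, 11 reached 1 FPKM, against 93.2% of all named genes. At 10 FPKM 4 remained, or 33.3%, close to the 34.0% of all named genes. The median of the 12 was 6.19 FPKM, close to the 6.50 FPKM of all named genes. Mat2a, the S-adenosylmethionine synthetase subunit of tissues outside the liver, was highest at 71.6 FPKM [69.7 to 73.5]. Ahcyl1, a relative of the hydrolase of S-adenosylhomocysteine, was at 53.7 FPKM. Mat2b, the regulatory subunit of Mat2a, was at 32.9 FPKM over 2 transcripts that were nearly equal in length. The lowest was Bhmt, a liver enzyme of methionine synthesis, at 0.542 FPKM [0.289 to 0.927] from 13 fragments. No transcript carried Mat1a, the liver form of the synthetase.

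Mitochondrial creatine kinase works beside the carrier that exchanges ADP and ATP and the pores of the outer membrane. Of 7 genes of these proteins and of the phosphate carrier, 5 were measured. All 5 reached 10 FPKM, against 34.0% of all named genes, and their median was 138 FPKM. Slc25a4, the translocator of heart, muscle and nerve cells, was highest at 422 FPKM [418 to 427], and stood 7.89-fold [7.67 to 8.12] above the mitochondrial kinase transcript, a ratio chosen after the values were seen. The phosphate carrier Slc25a3 was at 174 FPKM over 2 transcripts, and Slc25a5, the translocator of dividing and many other cells, at 138 FPKM. The lowest was the outer membrane pore Vdac2, at 94.7 FPKM [92.9 to 96.5]. Each of the 5 was above the mitochondrial kinase transcript.

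Adenylate kinases and nucleoside diphosphate kinases move phosphate between nucleotides and form the other phosphotransfer systems of the cell. Of 15 such genes, 10 were measured. All 10 reached 1 FPKM, against 93.2% of all named genes, and 6 reached 10 FPKM, against 34.0%. The median of the 10 was 25.9 FPKM. Nme2 was highest at 106 FPKM [103 to 109]. Ak3, the adenylate kinase of the mitochondrial matrix, was at 59.9 FPKM, and Nme1 at 48.9 FPKM. Nme1 and Nme2 are related in sequence and both had fractional counts. Whether fragments were divided between them was not tested. The lowest was Ak5, a form of the brain, at 1.72 FPKM [1.54 to 1.92]. Ckb was 5.34-fold [5.16 to 5.53] above Ak1, the main cytosolic adenylate kinase, which stood at 33.3 FPKM. It was 2.97-fold [2.89 to 3.04] above Ak3. Both ratios were chosen after the values were seen. Ckb also stood above every measured gene of this list.

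Ckm was next set beside genes of striated muscle, which can reach eye samples through the extraocular muscles. Whether it did so here was not tested. Of 20 skeletal muscle markers, 14 were measured, that is, named on a transcript. No transcript carried the symbols of Tnni2, Ryr1, Cacna1s, Myh1, Myh2 and Myh13. Of the 14, 11 reached 10 FPKM, against 34.0% of all named genes. The median of the 14 was 47.1 FPKM and their summed level 883 FPKM. Tcap (telethonin) was highest at 217 FPKM [213 to 220], followed by the fast troponin C gene Tnnc2 at 174 FPKM and Mb (myoglobin) at 127 FPKM. The lowest was Actn3, the fast fibre actinin, at 2.64 FPKM [2.25 to 3.07]. Ckm, at 28.6 FPKM, was lower than 9 of the 14 markers and higher than 5. Whether each of the 14 comes from muscle alone in this pool was not tested. Of 12 markers of slow and heart muscle, 9 were measured with a median of 9.78 FPKM and a summed level of 179 FPKM. The symbols of Myh7, Myh6 and Actc1 were on no transcript, so these values leave them out. Tnnc1 was highest at 72.6 FPKM, followed by Tnnt1 at 55.5 and Tnni3 at 13.8 FPKM. Nppa, a peptide of heart atria, was the lowest at 1.22 FPKM. Of 8 smooth muscle markers, 4 were measured, with a median of 6.72 FPKM. They ran from Smtn at 3.74 to Des at 16.6 FPKM, with Lmod1 at 7.29 and Cnn1 at 6.15 FPKM. No transcript carried the symbols of Acta2, Myh11, Tagln and Mylk, so the median leaves these markers out. Des is made by striated muscle as well. The part of these cells in the levels of Ckm and of the mitochondrial kinase was not tested.

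The muscle and brain forms of creatine kinase were compared with other proteins that have a muscle form and a more widespread form. Of 11 fixed pairs, 9 had both symbols and 8 lay on distinct transcripts, the pair Ckmt2 and Ckmt1 being excluded. Ckm lay below Ckb by a log2 ratio of -2.64 [-2.70 to -2.58]. The muscle form was lower in 5 of the 8 pairs and higher in 3. Over the 7 pairs other than Ckm and Ckb, the median log2 ratio was -2.05 and the range -4.08 to 1.61.

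Besides creatine kinase, the pairs with a lower muscle form were of glycolysis and cytochrome c oxidase. The mutase Pgam2 stood at 20.8 FPKM and Pgam1 at 181 FPKM, a log2 ratio of -3.12 [-3.21 to -3.03]. The oxidase subunit Cox6a2 was at 14.4 FPKM and Cox6a1 at 107 FPKM (log2 ratio -2.90). Cox7a1 was at 6.63 FPKM and Cox7a2 at 112 FPKM (log2 ratio -4.08). Cox8b was at 18.3 FPKM and Cox8a at 75.7 FPKM over 2 transcripts (log2 ratio -2.05). Ckm over Ckb lay between the ratios of the pairs of subunits 8 and 6A.

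The pairs with a higher muscle form were the nucleotide translocators, glycogen phosphorylases and calcium pumps. Slc25a4 stood at 422 FPKM and Slc25a5 at 138 FPKM, a log2 ratio of 1.61 [1.58 to 1.64]. The phosphorylase Pygm was at 19.2 FPKM and Pygb at 7.79 FPKM (log2 ratio 1.30). The pump Atp2a1 of fast muscle was at 54.5 FPKM and Atp2a2 at 32.6 FPKM (log2 ratio 0.74). Slc25a4 and Pygm are made outside muscle too, so the pairs differ in how well they mark muscle.

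**Figure D2:**
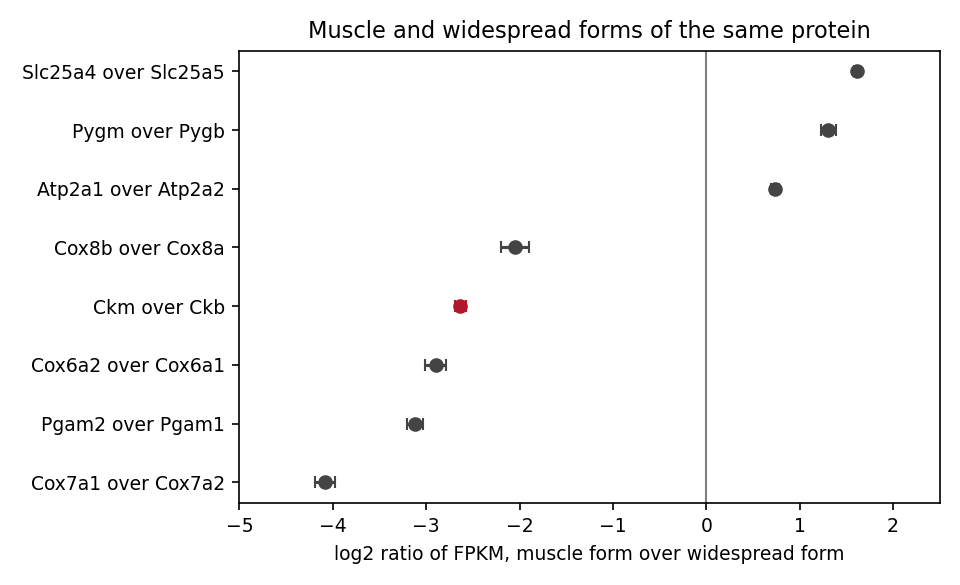
Log2 ratio of FPKM of the muscle form over the widespread form for 8 pairs, with 95% counting intervals. Ckm over Ckb (red) lies at -2.64, among the 5 pairs left of 0, and 3 pairs lie right of 0.

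Markers of the other cells of the eye were measured in the same pool. The photoreceptor markers Gngt1, Unc119 and Guca1a stood at 502, 444 and 410 FPKM, and the lowest of that list was the rod channel subunit Cnga1 at 36.2 FPKM. Their summed level was 3162 FPKM. All 11 markers of other retinal neurons reached 10 FPKM, against 34.0% of all named genes. The median of the 11 was 57.0 FPKM. Calb2 (calretinin) was highest at 148 FPKM. The synaptic gene Snap25 was at 133 FPKM on a transcript of 472 nt. The neurofilament gene Nefl was at 98.9 FPKM over 2 transcripts. The lowest of them was Nefm at 12.3 FPKM. Ckb, at 178 FPKM, was above each of these 11 and below the photoreceptor median.

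Of 10 markers of Müller glia and astrocytes, 8 reached 10 FPKM, against 34.0% of all named genes. The median of the 10 was 82.0 FPKM. Apoe, at 818 FPKM, rested on transcripts of up to 299 nt, and Rlbp1 and Clu were at 432 and 386 FPKM, with Kcnj10 lowest at 3.84 FPKM. Of 7 markers of the retinal pigment epithelium, 6 were measured with a median of 68.5 FPKM. Rpe65 was highest at 238 FPKM, Rgr was at 128 and Ttr at 102 FPKM, and Mertk was the lowest at 0.912 FPKM. In the lens list, Cryab was at 2894, Grifin at 1528 and Cryaa at 1263 FPKM, and the water channel Mip was the lowest at 194 FPKM. Cryab rested on 1 transcript of 309 nt and Cryaa on 2 transcripts of up to 676 nt.

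Of 7 markers of the corneal epithelium, 5 were measured with a median of 92.3 FPKM. Tkt was at 220.4, Krt4 at 144 and Pax6, which is also a gene of retinal neurons and lens, at 92.3 FPKM, with Krt14 lowest at 40.2 FPKM. Tkt rested on 2 transcripts of up to 598 nt. All 6 adipose markers were measured, with a median of 7.20 FPKM. Fabp4 was at 32.4, Adipoq at 18.3 and Cidec at 8.07 FPKM, and Lep was lowest at 2.27 FPKM. With 1 value per gene, no pattern across samples existed, so Ckb could not be assigned to any of these cells.

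**Figure D3:**
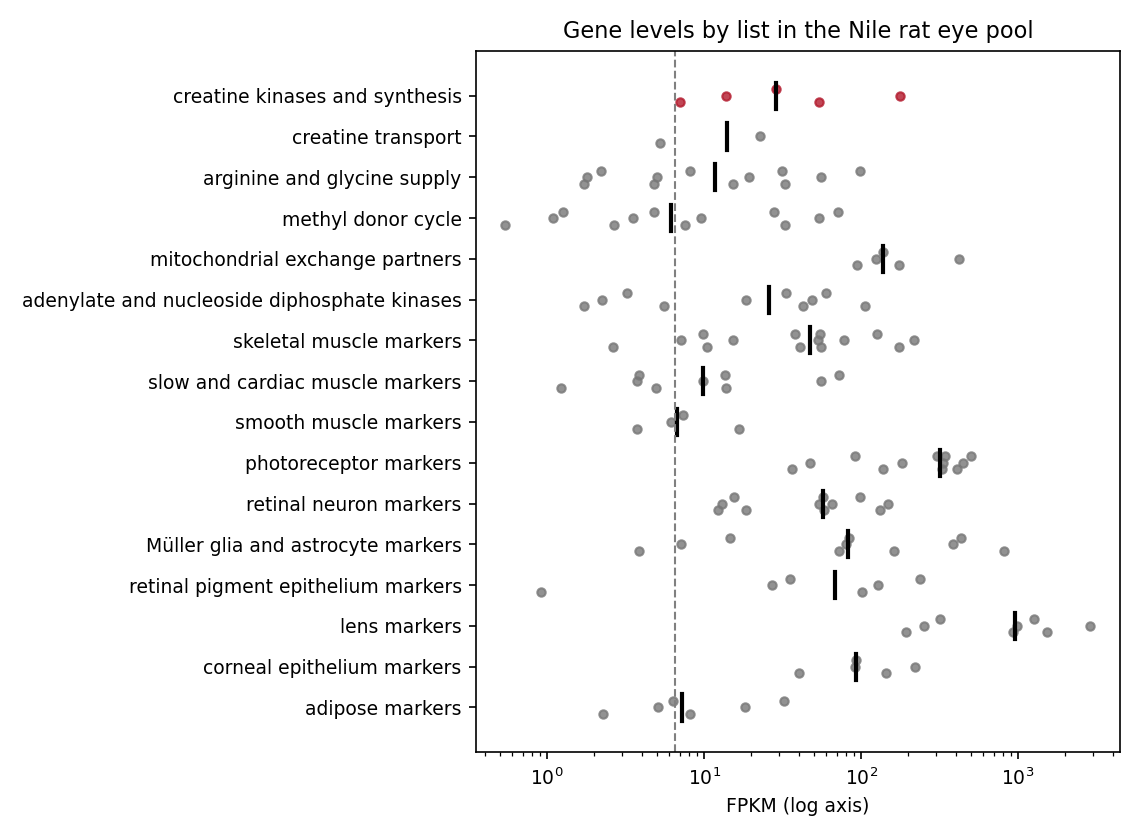
FPKM of every measured gene (points, log axis) in the fixed lists, with list medians as black bars and the median of all named genes as a dashed line. The member transcripts (red) run from 7.06 to 178 FPKM with a median of 28.6 FPKM. Medians above this were those of the lens, photoreceptor, mitochondrial exchange, corneal, Müller glia, pigment epithelium, retinal neuron and skeletal muscle lists, from 960 down to 47.1 FPKM.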

How the data were processed

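Values came from 1 expression table of the whole series, with no column per sample. Per the file headers it gives, per transcript, the FPKM deposited by the authors, the estimated count of fragments and the length. The deposited estimated count need not be whole. Bowtie was used, per the submitters' processing notes, while its version, the assembly method and the genome build were not given in the sources used here. FPKM was rebuilt from count, length and stated total for all 124299 transcripts with a fragment, within a relative tolerance of 1e-05.

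A member or list gene took every transcript with its symbol in any species column, case ignored, and FPKM was summed. For the 13982 named genes each transcript took its first symbol in the order mouse, rat, human. Of the 6 member symbols, 5 had a Nile rat RefSeq entry, and Ckmt1 had no match. Level intervals are 95% gamma intervals for Poisson counts, and ratio intervals use the delta method. They cover counting error only, and PCR copies are not independent molecules. A count of 0 on 1000 nt allows up to 3 fragments, or 0.0462 FPKM. The intervals were tested only on simulated Poisson counts, which do not hold the error of dividing fragments between transcripts. The members and lists were chosen with earlier results of these data known. Named genes are the members, the 3 highest and the lowest of each list and both genes of each isozyme pair. Further genes (Ak1, and symbols without a transcript) were named after the values were seen. Planned protein identities were not computed, as no sequences were used here. Alternatives concerned how transcripts are combined, minimum length and level, fragments, species names, TPM, pseudocount and threshold. Computations ran in Python 3.11.15 with SciPy 1.17.1 for the intervals, pandas 2.3.3 and NumPy 2.4.6 for the tables, and Matplotlib 3.10.9 for the figures.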

Additional observations from a re-analysis of the deposited data

How the results depend on the processing

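Each member rested on 1 transcript of at least 1207 nt and 7.06 FPKM. Taking the highest transcript, a length-weighted mean, a minimum of 500 nt or a minimum of 1 FPKM therefore gives the same values by construction. TPM leaves ratios and shares as they were, also by construction. No ratio changed sign without division by length or with a pseudocount. Without division by length, the log2 ratio was 2.34 for Ckb over Ckm, 1.39 for Ckb over the mitochondrial transcript, -0.44 for Gatm over Gamt and 4.01 for Ckb over Gatm, which was 4.65 in FPKM. The mitochondrial share was then 24.2% and the muscle share 36.7%. In TPM the levels were 130 for Ckb, 20.8 for Ckm, 39.1 for Ckmt1 and Ckmt2, 5.15 for Gatm and 10.1 for Gamt, a common scaling by 0.729. With a pseudocount of 1 FPKM, Ckb over Gatm was 4.47. At thresholds of 50 and 100 FPKM, 2 and 1 member transcripts remained. Chosen after seeing the data, counting the mitochondrial transcript as Ckmt1 gave a muscle share of 11.0%, and leaving it out gave 13.8%. With 1 symbol per transcript Ckmt1 had no value, and where all species had to name the gene alike neither Ckmt1 nor Ckmt2 had one. Fragments per member stand in the text and were not compared with FPKM levels, since the units differ. The ratio of Ckmt2 over Ckmt1 and left-out samples could not be computed. No paired analysis was possible because the table holds 1 pool of 1 group. Depth limits Gatm most, with an interval whose half-width was 6.73% of its level.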
